A study of Mus musculus with 25 samples.

Results

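Cell division genes encode the proteins that copy DNA in S phase and separate the copies in mitosis. The set described here holds 44 of the 55421 genes in a table of raw RNA sequencing counts, found by matching each gene's Ensembl mouse identifier to a fixed list of symbols. It has 17 S-phase genes and 27 mitotic genes. The S-phase genes cover origin licensing and the replicative helicase, nucleotide supply and the sliding clamp, and the regulators E2f1, E2f8 and Uhrf1. The mitotic genes cover cyclins and kinases, kinetochore, spindle and cytokinesis genes, the anaphase-promoting complex, chromosome structure and the regulator Foxm1.

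The counts come from whole lungs of 25 female wild-type mice given house dust mite (HDM) extract, which carries the allergens that inflame the airways of sensitised mice, or saline, through the nose. The labels give the strain as C57BL/6J and the design text as C57BL/6cmdb. The 5 groups of 5 mice each were 100 µg HDM with killing after 12 weeks, mice labelled as saline controls at 12 weeks, 100 µg HDM and 10 µg HDM with killing after 2 weeks, and saline controls at 2 weeks. One label calls the control lungs untreated. The mice's age and the number of doses, and any batch of collection or sequencing, are not stated in the labels, so the 12-week and 2-week groups may differ in more than the length of exposure, and these cannot be told apart.

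In a resting tissue most cells sit outside the cell cycle and hold little RNA for these genes. When a cell enters the cycle, E2F factors switch on the replication genes at the border of G1 and S phase. The mitotic genes follow in G2 phase under the MYB-MuvB complex and Foxm1, many of them through a promoter element called the cell-cycle genes homology region (CHR). Adult lung divides slowly, and lymphocytes, macrophages, airway epithelium, fibroblasts and endothelium can all enter the cycle during inflammation. In whole lung a higher level can come from more cycling cells or from more RNA per cell, and the counts cannot tell these apart.

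Total counts ran from 25.4 M to 51.9 M per library, except for 7.23 M in replicate 4 of the 2-week saline group, in which ribosomal RNA made up 33.7% of counts. The 44 genes together received 2265 counts in that library and 11717 to 69350 in the others. All 44 passed the filter on low counts. The 12-week libraries labelled saline stand apart from the 2-week saline libraries in markers of airway cells. The summed level of 9 airway basal and goblet cell markers, in CPM (counts scaled to a common library size by TMM), was 1035 to 2525 CPM in the 12-week HDM lungs, 1261 to 3319 CPM in the 12-week saline-labelled lungs and 33.9 to 146 CPM in the 2-week saline lungs. It was 18.3 to 410 CPM with 100 µg HDM and 70.0 to 221 CPM with 10 µg HDM at 2 weeks. Why both 12-week groups were high was not tested. The saline label at 12 weeks is treated here as in doubt, and any direction taken from those libraries rests on it. The labels number the mice within each group, and the p-values measure the spread between those mice.

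Across the 5 groups the level of the set followed the time point more than the dose. The S-phase score, the mean log2 CPM of the 17 S-phase genes, was 3.08 ± 0.07 in 2-week saline lungs, 3.21 ± 0.09 with 10 µg HDM and 3.26 ± 0.09 with 100 µg HDM at 2 weeks (SD, n = 5 each). At 12 weeks it was 3.97 ± 0.24 with 100 µg HDM and 4.07 ± 0.16 in saline-labelled lungs. The mitotic score, over the 27 mitotic genes, was 2.23 ± 0.25 in 2-week saline lungs, 2.34 ± 0.14 with 10 µg and 2.29 ± 0.13 with 100 µg HDM at 2 weeks. At 12 weeks it was 3.40 ± 0.48 with 100 µg HDM and 3.93 ± 0.43 in saline-labelled lungs. Every 12-week library lay above every 2-week library on both scores. The mitotic score differed more between the time points than the S-phase score. Its difference from the S-phase score was -0.57 in the 12-week HDM group and -0.14 in the 12-week saline-labelled group, against -0.96 and -0.85 in the 2-week groups of the same label. These scores are descriptions of chosen genes and carry no test.

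**Figure D1:**
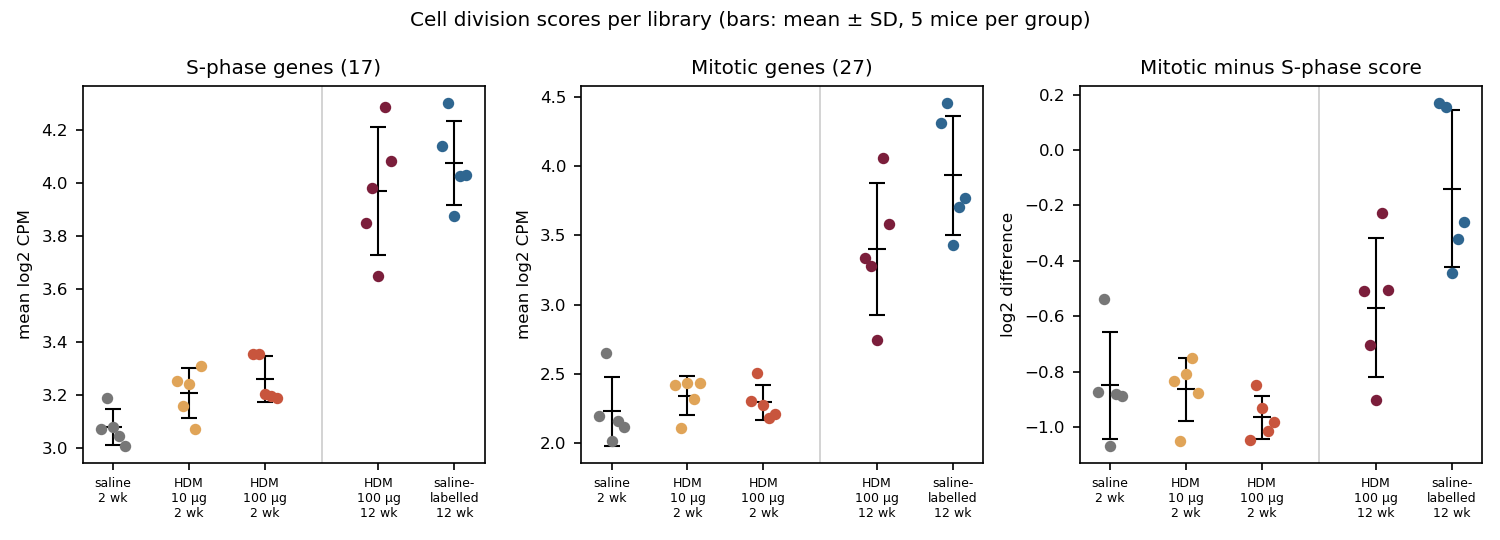
S-phase score, mitotic score (both mean log2 CPM) and their difference (log2) in each of the 25 libraries, by group; points are mice and bars are mean ± SD over 5 mice. On both scores the 10 libraries at 12 weeks sit above the 15 at 2 weeks, with the widest spread among the mitotic scores at 12 weeks.

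The comparison of 12 with 2 weeks at 100 µg HDM asks what changes when the same dose is given over the longer model. Neither of its groups carries the label in doubt, but the filter and the estimate of the spread draw on all 25 libraries. A fit of the compared groups only called 41 genes of the set, without Bub1 and Rrm1. Of the 44 genes, 43 rose and 0 fell (edgeR quasi-likelihood test, adjusted p under 0.05 over all 19654 genes tested), with Mcm4 the exception. Among all genes tested 22.1% were called higher and 16.4% lower. The median log2 fold change was 1.05 over the set and 0.02 over all genes. The 27 mitotic genes all rose, with a median of 1.19, and 16 of 17 S-phase genes rose, with a median of 0.74. The 5 lungs at 12 weeks lay above the 5 lungs at 2 weeks without overlap for 31 of the 44 genes. How many of all genes tested separate in this way was not counted.

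The proliferation marker Mki67, a protein that coats mitotic chromosomes, shows the pattern. It had 150, 106, 86.6, 263 and 136 CPM in the 12-week HDM lungs, against 56.2, 60.0, 53.9, 67.4 and 56.1 CPM in the 2-week HDM lungs. All 5 lungs at 12 weeks were above all 5 at 2 weeks, and replicate 4 was far above the others. The log2 fold change was 1.34 ± 0.25 (SE, adjusted p = 0.000239). Top2a, the topoisomerase that untangles sister chromatids, had 50.4, 52.2, 37.8, 96.8 and 65.8 CPM at 12 weeks, against 24.5, 26.0, 24.1, 21.5 and 23.9 CPM at 2 weeks. The groups again did not overlap, and the log2 fold change was 1.34 ± 0.22 (adjusted p = 5.64e-05).

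The cyclins and mitotic kinases drive entry into mitosis, and all 7 rose, with log2 fold changes of 1.05 to 1.61. Cdk1, the kinase whose activity starts mitosis, had the largest change of the 44 genes. It had 7.35, 5.95, 4.37, 12.0 and 9.14 CPM in the 12-week HDM lungs, against 2.62, 3.18, 2.13, 1.96 and 2.75 CPM in the 2-week HDM lungs. Its log2 fold change was 1.61 ± 0.23 (adjusted p = 1.32e-05). Its partner cyclin Ccnb1 had 3.76, 3.70, 2.32, 5.97 and 5.34 CPM at 12 weeks, against 1.71, 2.12, 1.83, 1.15 and 1.34 CPM at 2 weeks, without overlap. The log2 fold change of Ccnb1 was 1.37 ± 0.26 (adjusted p = 0.000323). Aurkb, the kinase of the chromosomal passenger complex, had 4.66, 5.23, 3.49, 7.50 and 5.26 CPM at 12 weeks, against 2.29, 2.22, 1.46, 1.33 and 1.54 CPM at 2 weeks. It rose by 1.56 ± 0.22 on the log2 scale (adjusted p = 1.04e-05).

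The 8 kinetochore and checkpoint genes, which attach chromosomes to the spindle and delay anaphase until attachment is complete, all rose. Their log2 fold changes ran from 0.50 for the checkpoint kinase Bub1 to 1.44 for Nuf2, a subunit of the NDC80 complex that grips microtubules. The 7 spindle and cytokinesis genes rose by 0.78 for Kif23, a motor of the central spindle, to 1.40 for Kif11, the motor that pushes spindle poles apart. Cdc20, an activator of the anaphase-promoting complex, rose by 1.30 ± 0.22, and Ube2c, the ubiquitin-conjugating enzyme of that complex, by 1.03 ± 0.22. All 4 regulators rose. Foxm1, the transcription factor of G2 phase genes, had 8.23, 7.51, 5.83, 14.2 and 10.0 CPM at 12 weeks, against 2.71, 5.08, 4.55, 3.92 and 3.08 CPM at 2 weeks, and its log2 fold change was 1.24 ± 0.23 (adjusted p = 0.00024). E2f1, an activator of replication genes, had 11.0, 8.50, 7.62, 11.4 and 9.99 CPM at 12 weeks, against 5.74, 7.10, 5.39, 4.68 and 5.97 CPM at 2 weeks, and its log2 fold change was 0.74 ± 0.14 (adjusted p = 0.000204).

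Origin licensing and helicase genes rose less. Of the 9 genes, 8 rose, with a median log2 fold change of 0.69 over the 9. Mcm2 to Mcm7 encode the 6 subunits of the replicative helicase, and 5 of the 6 were called. Mcm2 had 29.4, 31.2, 26.0, 37.1 and 32.2 CPM at 12 weeks, against 16.8, 21.4, 16.5, 18.0 and 14.8 CPM at 2 weeks. Its log2 fold change of 0.83 ± 0.10 had the smallest adjusted p of the set (2.6e-06), and the groups did not overlap. Mcm5 had 22.2, 28.2, 21.7, 35.5 and 30.2 CPM at 12 weeks, against 15.6, 15.0, 17.7, 14.7 and 15.2 CPM at 2 weeks, for a log2 fold change of 0.82 ± 0.15 (adjusted p = 0.000156). Mcm4 had 35.2, 43.1, 37.0, 44.4 and 44.9 CPM at 12 weeks, against 44.9, 35.1, 42.8, 43.4 and 40.1 CPM at 2 weeks. Its groups overlapped fully, with a log2 fold change of -0.01 ± 0.09 (adjusted p = 0.936).

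The genes of nucleotide supply and the clamp were uneven. Tk1, the thymidine kinase that salvages thymidine for DNA synthesis, had 8.01, 8.33, 5.64, 8.76 and 8.18 CPM at 12 weeks, against 2.77, 3.84, 2.29, 2.08 and 1.87 CPM at 2 weeks. The groups did not overlap, and it rose by 1.59 ± 0.21 on the log2 scale (adjusted p = 4.6e-06). Rrm2, the ribonucleotide reductase subunit made in S phase, had 10.2, 11.5, 8.79, 15.9 and 12.0 CPM at 12 weeks, against 5.44, 6.33, 4.72, 4.13 and 3.90 CPM at 2 weeks, a log2 fold change of 1.25 ± 0.16 (adjusted p = 5.03e-06). Rrm1, the subunit of the same enzyme that is present outside S phase too, changed by 0.27 ± 0.10 (adjusted p = 0.0346). Pcna, the sliding clamp of the DNA polymerases, which also serves in DNA repair, had 42.7, 50.1, 46.8, 52.9 and 56.2 CPM at 12 weeks, against 45.4, 36.6, 40.9, 38.8 and 40.2 CPM at 2 weeks. These groups overlapped, and the log2 fold change was 0.30 ± 0.09 (adjusted p = 0.00882). The calls of 4 genes depended on single libraries. Bub1 and Pcna lost their calls without replicate 4 or without replicate 5 of the 12-week HDM group, where 39 and 40 genes of the set were called. Pcna also lost its call without replicate 2 of the 2-week HDM group, where 41 were called, and Ndc80 without replicate 4 of the 12-week group. Rrm1 lost its call in 13 of 18 other settings, among them the removal of any of replicates 1, 2, 4 and 5 of the 12-week group or 2, 3, 4 and 5 of the 2-week group. Over 18 other settings the adjusted p ran from 0.00896 to 0.0753 for Pcna, from 0.0185 to 0.197 for Rrm1, from 0.00982 to 0.143 for Bub1 and from 0.00512 to 0.0679 for Ndc80.

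**Figure D2:**
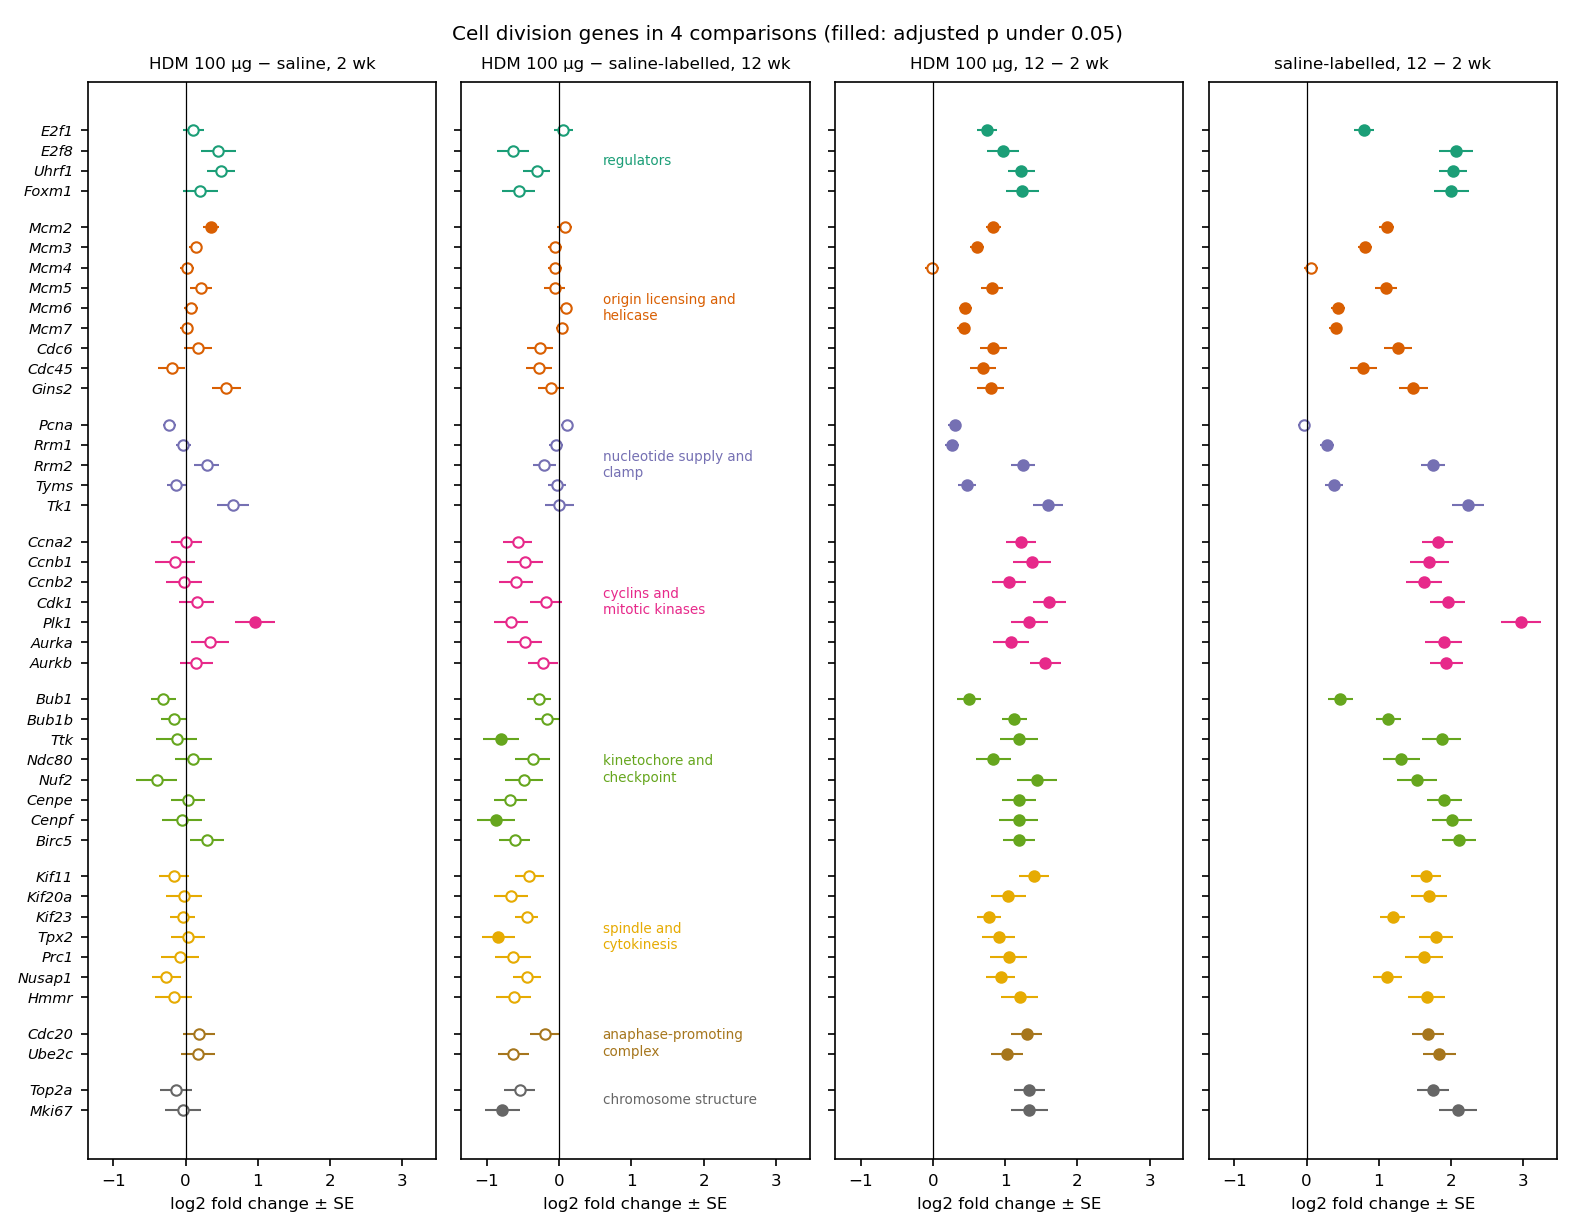
Log2 fold change ± SE of the 44 genes, grouped by role, in 4 comparisons; filled points have an adjusted p under 0.05 over all genes tested. Both comparisons of 12 with 2 weeks lie to the right of 0 for nearly every gene, while at 12 weeks HDM against saline-labelled lungs lies to the left of 0 for all 27 mitotic genes.

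In the lungs labelled saline, 12 weeks against 2 weeks, 42 of the 44 genes rose and 0 fell, and Mcm4 and Pcna did not pass the test. Among all genes tested 28.5% were called higher and 25.6% lower. The median log2 fold change was 1.66 over the set, 1.75 over the mitotic genes and 0.81 over the S-phase genes, against 0.04 over all genes. All 27 mitotic genes and 15 of 17 S-phase genes were called. The groups did not overlap for 39 genes of the set, and such genes were not counted over all genes tested. Without the shallow 2-week saline library 41 genes were called.

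Plk1, the kinase that matures centrosomes and triggers mitotic entry, had the largest change of the set. It had 10.9, 13.6, 4.77, 6.06 and 6.77 CPM in the 12-week saline-labelled lungs, against 1.06, 1.21, 0.727, 1.09 and 1.25 CPM in the 2-week saline lungs. The lowest 12-week lung was well above the highest 2-week lung. The log2 fold change was 2.97 ± 0.28, or 7.83-fold, with an adjusted p of 1.12e-08. Mki67 had 328, 416, 140, 187 and 210 CPM at 12 weeks, against 55.3, 70.5, 46.7, 73.7 and 55.2 CPM at 2 weeks, for a log2 fold change of 2.10 ± 0.26 (4.27-fold, adjusted p = 3.72e-07). Top2a had 107, 132, 56.8, 70.4 and 76.0 CPM at 12 weeks, against 23.7, 37.4, 21.6, 29.1 and 20.2 CPM at 2 weeks, and its log2 fold change was 1.75 ± 0.22 (adjusted p = 5.82e-07).

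Replicates 1 and 2 of the 12-week saline-labelled group were the highest of its 5 lungs for these 3 genes. Cdk1 had 9.49, 11.2, 6.71, 8.04 and 8.62 CPM at 12 weeks, against 2.04, 3.40, 1.56, 1.53 and 2.33 CPM at 2 weeks, and it rose by 1.95 ± 0.24 on the log2 scale (adjusted p = 3.65e-07). Ccnb1 had 6.67, 7.78, 3.95, 4.55 and 6.21 CPM at 12 weeks, against 1.57, 2.96, 1.59, 1.09 and 1.33 CPM at 2 weeks, a log2 fold change of 1.70 ± 0.27 (adjusted p = 1.18e-05). For both genes the groups did not overlap.

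Birc5, the survivin subunit of the chromosomal passenger complex, rose by 2.11 ± 0.24 (adjusted p = 1.08e-07), and Cenpf, a large kinetochore protein, by 2.01 ± 0.28 (adjusted p = 1.99e-06). Of the regulators, Foxm1 had 14.9, 15.8, 9.54, 13.2 and 14.2 CPM in the 12-week saline-labelled lungs, against 3.52, 3.58, 2.70, 1.31 and 4.62 CPM in the 2-week saline lungs, and its log2 fold change was 2.00 ± 0.24 (adjusted p = 2.74e-07). E2f8, a repressor that is itself made in S phase and damps E2F targets, rose by 2.07 ± 0.24 (adjusted p = 1.78e-07). Uhrf1, which brings the maintenance DNA methyltransferase to newly copied DNA, had 32.4, 34.4, 17.9, 21.1 and 22.4 CPM at 12 weeks, against 7.05, 6.13, 6.27, 7.21 and 5.36 CPM at 2 weeks. It rose by 2.02 ± 0.20 (adjusted p = 1.73e-08). E2f1 had 7.48, 8.65, 9.14, 10.9 and 10.4 CPM at 12 weeks, against 5.09, 5.38, 4.40, 6.78 and 5.69 CPM at 2 weeks, a smaller log2 fold change of 0.80 ± 0.14 (adjusted p = 4.44e-05).

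Mcm2 had 26.4, 28.9, 29.5, 32.4 and 30.7 CPM at 12 weeks, against 13.0, 14.9, 13.0, 12.7 and 14.6 CPM at 2 weeks, and its log2 fold change was 1.11 ± 0.11 (adjusted p = 1.48e-08). Mcm5 had 32.1, 37.3, 24.8, 24.0 and 25.5 CPM at 12 weeks, against 12.3, 14.3, 12.5, 10.1 and 16.8 CPM at 2 weeks, and its log2 fold change was 1.10 ± 0.15 (adjusted p = 1.63e-06). Neither gene overlapped between the groups. Tk1 had 7.84, 7.60, 6.25, 8.23 and 8.92 CPM at 12 weeks, against 1.96, 2.13, 1.38, 0.437 and 1.56 CPM at 2 weeks, and rose by 2.24 ± 0.22 (adjusted p = 2.13e-08). Rrm2 rose by 1.75 ± 0.17 (adjusted p = 1.91e-08). Pcna stayed apart from the others. It had 47.9, 54.5, 40.8, 44.6 and 42.7 CPM at 12 weeks, against 44.4, 48.2, 47.2, 45.7 and 50.4 CPM at 2 weeks, with a log2 fold change of -0.04 ± 0.09 (adjusted p = 0.755). Mcm4 had a mean of 42.5 ± 6.95 CPM at 12 weeks and 41.0 ± 2.72 CPM at 2 weeks (SD, n = 5 each), with a log2 fold change of 0.06 ± 0.10 (adjusted p = 0.628). Bub1 and Rrm1 lost their calls without replicate 5 of the 2-week saline group, where 40 genes were called, and without replicate 2 of the 12-week group, where 40 were called. Bub1 also lost its call without replicate 1 of the 12-week group and Rrm1 without replicate 4 of the 2-week group, with 41 called in each case. Over 18 other settings the adjusted p of Bub1 ran from 0.00847 to 0.0898 and that of Rrm1 from 0.00779 to 0.0715.

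**Figure D3:**
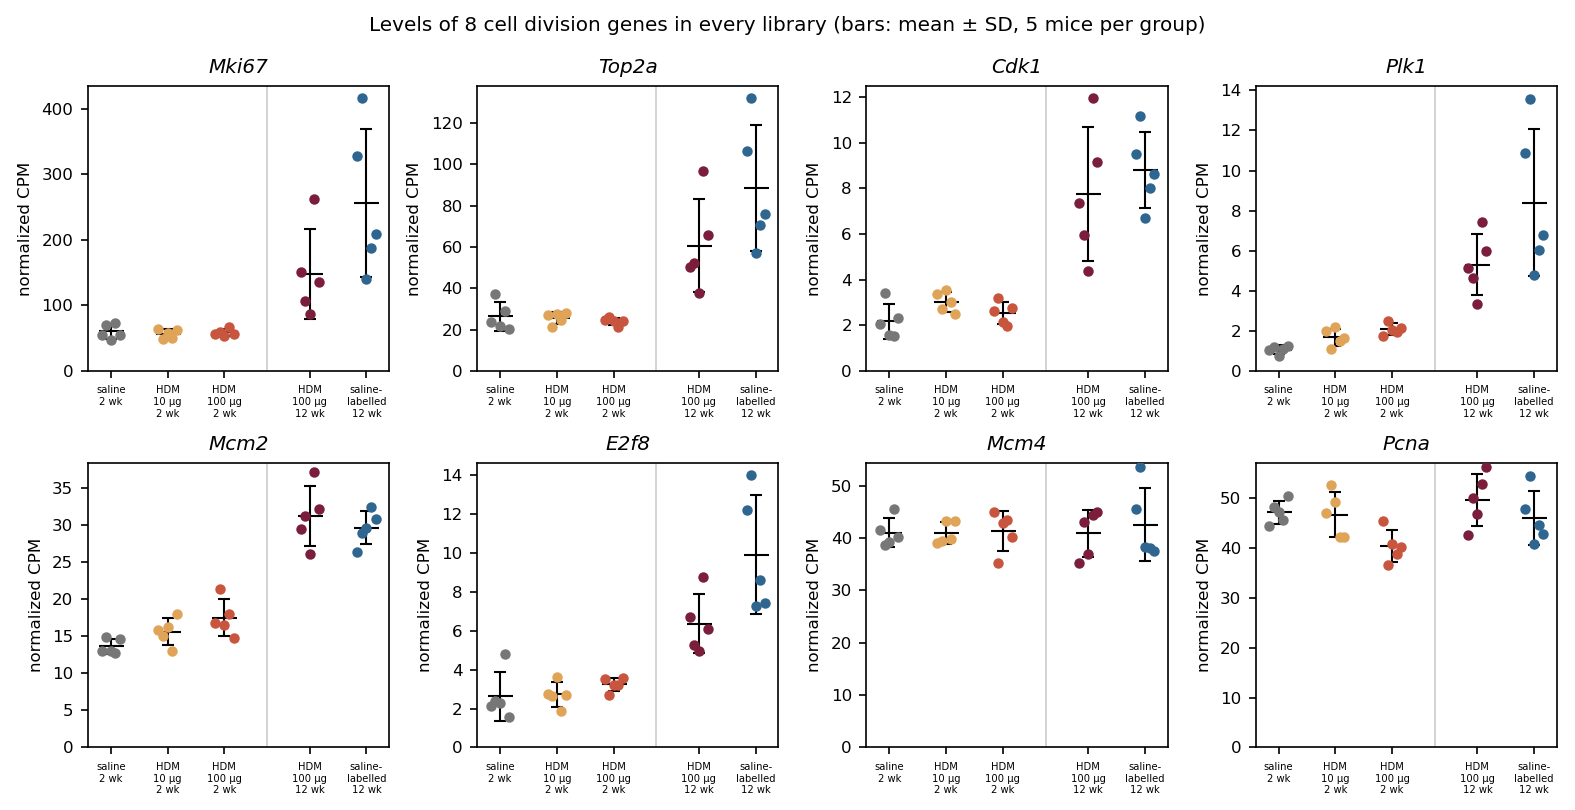
Normalized CPM of 8 genes in each library by group, with every axis starting at 0; points are mice and bars are mean ± SD over 5 mice. Mki67, Top2a, Cdk1, Plk1, Mcm2 and E2f8 lie higher in the 12-week groups than in the 2-week groups, while Mcm4 lies between 35.1 and 53.5 CPM in all 25 libraries and Pcna between 36.6 and 56.2 CPM.

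Since many of these genes moved together, the promoters given by RefSeq were searched for the elements known to drive S-phase and mitotic genes. A window of 300 bases, 250 before and 50 after the start, was found for 37 of the 44 genes, with 40 windows in all, as some genes have more than 1 start. Foxm1, Mcm4, Gins2, Ccna2, Aurkb, Kif20a and Tpx2 had no entry. The letters searched on both strands were CCAAT for the CCAAT box, TTTGAA or TTCGAA for the CHR, and TTTCCCGC, TTTCGCGC, TTTGCCGC or TTTGGCGC for the E2F site. The 250 bases before the start are shown for a selection of the 37 genes, with build GRCm38.p6. They are written 5′ to 3′ in the direction of the gene, and capitals mark the matches on either strand. The selection does not cover all genes with the largest changes, and each promoter shown holds a match. Tk1, Birc5 and Nuf2 have windows without a match to any element searched, and these are not shown. Between the time points Tk1 rose by 1.59 in the HDM lungs and 2.24 in the saline-labelled lungs on the log2 scale. Top2a, which is shown, rose by 1.34 and 1.75.

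Plk1, chr7:122159185-122159434, plus strand: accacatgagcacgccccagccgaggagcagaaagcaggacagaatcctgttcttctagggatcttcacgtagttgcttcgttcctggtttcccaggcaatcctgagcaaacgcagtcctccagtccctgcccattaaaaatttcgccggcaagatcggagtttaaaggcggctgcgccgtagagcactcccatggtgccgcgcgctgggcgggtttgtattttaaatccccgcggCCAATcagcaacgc

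Mki67, chr7:135716380-135716629, minus strand: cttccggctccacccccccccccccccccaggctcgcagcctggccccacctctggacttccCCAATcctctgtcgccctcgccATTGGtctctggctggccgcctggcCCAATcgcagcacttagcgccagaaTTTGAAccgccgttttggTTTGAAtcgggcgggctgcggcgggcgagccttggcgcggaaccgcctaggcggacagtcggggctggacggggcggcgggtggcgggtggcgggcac

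Top2a, chr11:99024190-99024439, minus strand: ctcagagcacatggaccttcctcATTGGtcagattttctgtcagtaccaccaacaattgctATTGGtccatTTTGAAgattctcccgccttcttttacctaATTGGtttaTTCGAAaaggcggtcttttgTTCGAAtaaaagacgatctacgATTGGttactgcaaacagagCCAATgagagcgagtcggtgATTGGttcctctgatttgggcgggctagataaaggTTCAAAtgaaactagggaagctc

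Cdk1, chr10:69352913-69353162, minus strand: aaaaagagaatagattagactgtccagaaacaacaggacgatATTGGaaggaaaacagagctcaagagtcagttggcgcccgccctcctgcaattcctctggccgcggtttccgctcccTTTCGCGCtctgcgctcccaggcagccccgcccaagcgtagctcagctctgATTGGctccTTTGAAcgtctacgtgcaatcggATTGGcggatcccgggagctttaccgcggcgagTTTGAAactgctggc

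E2f8, chr7:48881597-48881846, minus strand: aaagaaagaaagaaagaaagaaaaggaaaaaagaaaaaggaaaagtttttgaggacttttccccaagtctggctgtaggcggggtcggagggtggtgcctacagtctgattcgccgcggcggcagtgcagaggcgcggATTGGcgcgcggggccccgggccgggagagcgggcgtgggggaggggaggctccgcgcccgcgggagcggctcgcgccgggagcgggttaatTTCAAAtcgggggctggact

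Mcm5, chr8:75109259-75109508, plus strand: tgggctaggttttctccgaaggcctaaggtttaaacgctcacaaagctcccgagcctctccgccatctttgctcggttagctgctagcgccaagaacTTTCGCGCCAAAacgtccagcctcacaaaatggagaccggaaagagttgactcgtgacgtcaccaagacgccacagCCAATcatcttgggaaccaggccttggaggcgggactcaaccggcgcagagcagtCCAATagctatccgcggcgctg

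Mcm2, chr6:88898781-88899030, minus strand: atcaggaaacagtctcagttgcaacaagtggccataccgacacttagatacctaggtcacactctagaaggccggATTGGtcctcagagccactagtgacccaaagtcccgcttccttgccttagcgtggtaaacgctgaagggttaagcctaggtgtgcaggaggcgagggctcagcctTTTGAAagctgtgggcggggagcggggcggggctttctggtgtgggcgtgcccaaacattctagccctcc

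A CHR match was found in 78.3% of the 23 windows of mitotic genes, 23.5% of the 17 windows of S-phase genes and 19.2% of all 32851 windows of the table. Many of the matches in mitotic genes lay in the 50 bases after the start, which are not shown: in the 250 bases before it, the shares were 39.1% for mitotic genes, 23.5% for S-phase genes and 17.2% for all windows. The promoters of Top2a, Mki67 and Cdk1 above hold more than 1 CHR match each, and that of Plk1 holds its match after the start. A CCAAT box was found in 82.6% of the mitotic windows, 76.5% of the S-phase windows and 37.4% of all windows. An E2F site was found in 4.35% of the mitotic windows, 35.3% of the S-phase windows and 2.27% of all windows. In the Mcm5 promoter the longest run of capitals is a pair of overlapping E2F matches on opposite strands. In 1 of the 40 windows matches of different elements overlapped. The 21 genes with a CHR match had a median log2 fold change of 1.08 in the HDM lungs and 1.66 in the saline-labelled lungs between 12 and 2 weeks, against 0.89 and 1.20 for the 16 genes without a match. The 29 genes with a CCAAT box had the same medians of 1.08 and 1.66, against 0.89 and 1.29 for the 8 without. The 7 genes with an E2F site had lower medians, 0.82 and 1.10, against 1.10 and 1.66 for the 30 without. CHR matches were more frequent in mitotic windows and E2F sites in S-phase windows, so those splits cannot be told apart from phase. The matches are of letters and do not show that a factor binds there.

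The other genes of the cycle, from lists of textbook members outside the set, were counted in the same comparisons. Over all genes, 22.1% were called higher and 16.4% lower in the HDM lungs, and 28.5% and 25.6% in the saline-labelled lungs. Of 62 other mitosis genes, 49 rose and 0 fell between 12 and 2 weeks in the HDM lungs, with a median log2 fold change of 0.92. The 4 with the smallest p were Espl1, the protease that cleaves cohesin (1.48), the spindle motor Kifc1 (1.83), the cytokinesis regulator Racgap1 (1.05) and Cdca3 (1.50). In the saline-labelled lungs 56 rose and 2 fell, with a median of 1.49. Ncapd2, a condensin subunit (1.58), Espl1 (2.21), Cdca8, a passenger complex subunit (2.14), and Racgap1 (1.48) had the smallest p. The 2 that fell, named after their values were seen, were the securin Pttg1 (-0.67) and the checkpoint protein Bub3 (-0.31).

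Of 48 other replication genes, 26 rose and 1 fell in the HDM lungs, with a median log2 fold change of 0.36. Mcm10, which helps to fire origins, rose by 1.34, the flap endonuclease Fen1 by 0.84, the chromatin assembly subunit Chaf1a by 0.71 and the polymerase subunit Pole by 0.88. The gene that fell, named after its value was seen, was the polymerase subunit Pold3 (-0.33). In the saline-labelled lungs 26 rose and 5 fell, with a median of 0.52. Mcm10 (2.17), Chaf1a (1.12), Fen1 (1.18) and the licensing factor Cdt1 (1.39) led by p. The 5 that fell, named after their values were seen, were Tipin (-0.53), Usp1 (-0.36), Gins4 (-0.33), Pold3 (-0.32) and Orc6 (-0.28).

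Genes that act in G1 phase or hold cells out of the cycle moved in both directions. Of 35, 10 rose and 5 fell in the HDM lungs, with a median log2 fold change of 0.07, and 11 rose and 7 fell in the saline-labelled lungs, with a median of 0.10. These are 28.6% higher and 14.3% lower of the list in the HDM lungs, near the 22.1% and 16.4% of all genes. In the saline-labelled lungs they are 31.4% higher and 20% lower, near the 28.5% and 25.6% of all genes. The counts are therefore no result about the list. In the HDM lungs the 4 with the smallest p were the kinase inhibitor Cdkn1b (-0.74), the INK4 inhibitor Cdkn2d (0.57), Max, the partner of Myc (-0.40), and the phosphatase Cdkn3 (1.03). In the saline-labelled lungs they were Myc (1.52), the E2F repressor E2f7 (2.12), the kinase inhibitor Cdkn1c (-1.44) and Trp53, which encodes p53 (1.18). Cdkn3 and E2f7 are themselves known to be made in dividing cells. The G1 cyclins Ccnd1, with log2 fold changes of -0.01 in the HDM lungs and 0.01 in the saline-labelled lungs, and Ccnd2, with 0.17 and 0.10, did not pass the test in either comparison.

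**Figure D4:**
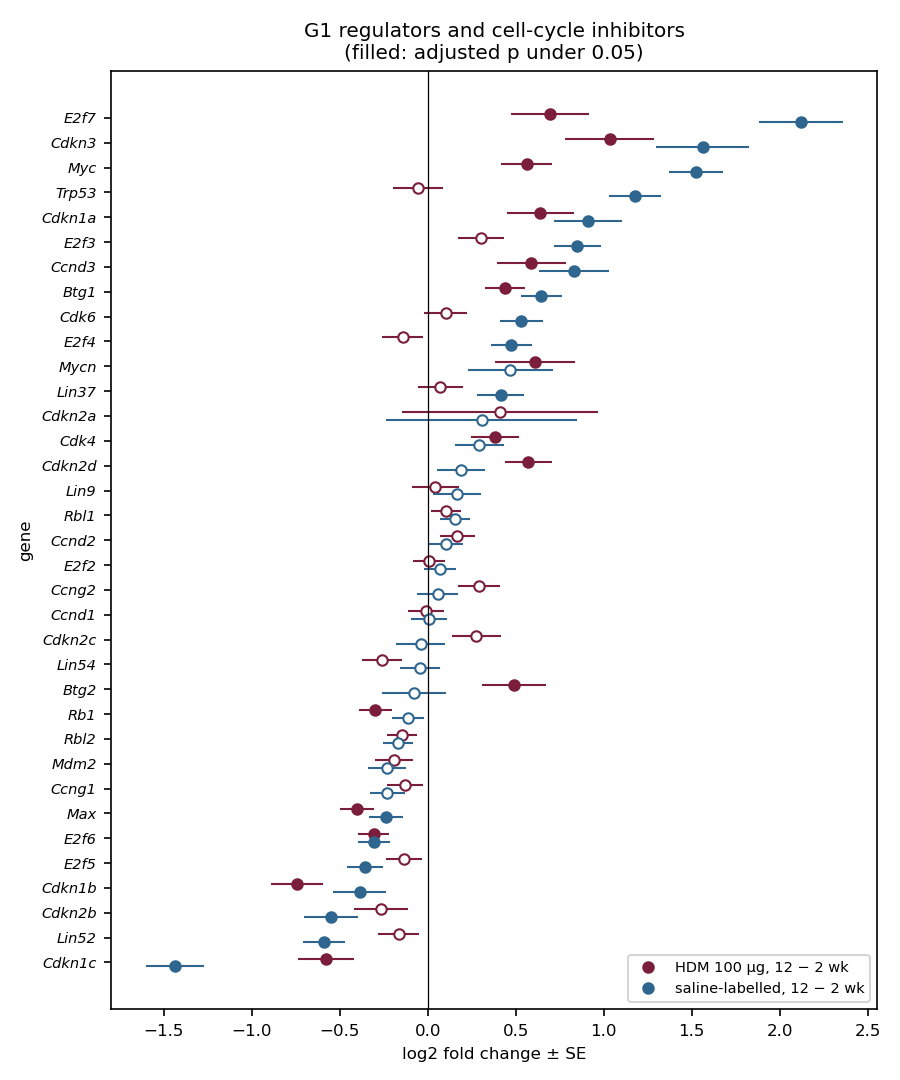
Log2 fold change ± SE of 35 G1 regulators and cell-cycle inhibitors between 12 and 2 weeks, in 100 µg HDM lungs and in saline-labelled lungs; filled points have an adjusted p under 0.05. The genes lie on both sides of 0, with E2f7, Cdkn3 and Myc on the right and Cdkn1c and Cdkn1b on the left in both comparisons.

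Markers of several cell types also differed between 12 and 2 weeks. The counts below stand against 22.1% of all genes called higher and 16.4% lower in the HDM lungs. In the saline-labelled lungs these shares were 28.5% and 25.6%. Between 12 and 2 weeks in the HDM lungs, 10 of 11 interstitial macrophage and monocyte markers rose, with a summed level of 699 to 1194 CPM at 12 weeks and 278 to 388 CPM at 2 weeks. Of 12 T cell markers 9 rose, with sums of 129 to 163 CPM at 12 weeks and 86.9 to 111 CPM at 2 weeks. Of 9 plasma cell markers 7 rose, with sums of 524 to 1276 CPM at 12 weeks and 364 to 444 CPM at 2 weeks. Of 7 tested airway basal and goblet cell markers 5 rose and 1 fell, with sums of 1035 to 2525 CPM at 12 weeks and 18.3 to 410 CPM at 2 weeks. Of 10 B cell markers 0 were called by edgeR, with sums of 260 to 428 CPM at 12 weeks and 243 to 460 CPM at 2 weeks. Of 7 germinal centre B cell markers 3 rose, with sums of 118 to 139 CPM at 12 weeks and 110 to 138 CPM at 2 weeks. Of 11 endothelial markers 6 fell, with sums of 2949 to 3669 CPM at 12 weeks and 3642 to 4326 CPM at 2 weeks. Fibroblast markers rose in 4 and fell in 2 of 9, with a median log2 fold change of -0.17. Their sums were 4169 to 5810 CPM at 12 weeks and 2893 to 3689 CPM at 2 weeks. Alveolar type 2 cell markers rose in 4 and fell in 1 of 9. Megakaryocyte markers rose in 1 and fell in 3 of 6 tested, and 0 of 3 tested neutrophil progenitor markers were called by edgeR.

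In the saline-labelled lungs the interstitial macrophage and monocyte markers also rose in 10 of 11 cases, with sums of 804 to 1293 CPM at 12 weeks and 286 to 342 CPM at 2 weeks. T cell markers rose in 10 of 12, plasma cell markers in 6 of 9 and B cell markers in 8 of 10. The B cell sums were 406 to 595 CPM at 12 weeks and 215 to 361 CPM at 2 weeks, and the T cell sums were 135 to 167 CPM at 12 weeks and 66.3 to 91.5 CPM at 2 weeks. Of 7 germinal centre markers 4 rose and 1 fell, and the sums were 120 to 147 CPM at 12 weeks and 122 to 135 CPM at 2 weeks. Of 11 endothelial markers 8 fell and 1 rose, with sums of 2697 to 3290 CPM at 12 weeks and 3580 to 4544 CPM at 2 weeks. Fibroblast markers rose in 4 and fell in 3 of 9, with a median log2 fold change of -0.17. Their sums were 4348 to 5685 CPM at 12 weeks and 2685 to 3426 CPM at 2 weeks. Alveolar type 2 cell markers rose in 3 and fell in 2 of 9. Megakaryocyte markers rose in 0 and fell in 2 of 6 tested, and 1 of 3 tested neutrophil progenitor markers rose. Of 12 alveolar macrophage markers 5 rose and 4 fell in the saline-labelled lungs, with a median log2 fold change of 0.07, and 6 rose and 1 fell in the HDM lungs, with a median of 0.81, so the sums rest on part of the list. They came to 3496 to 5999 CPM at 12 weeks and 737 to 1051 CPM at 2 weeks in the saline-labelled lungs, and 2062 to 10277 CPM at 12 weeks and 447 to 875 CPM at 2 weeks in the HDM lungs. Circadian clock genes also moved, with 6 higher and 4 lower of 14 in the HDM lungs and 8 higher and 3 lower in the saline-labelled lungs. The part of any cell type in the rise of the cell division genes was not tested. Of the other tissues that divide fast, in the saline-labelled lungs thymocyte markers summed to 14.6 to 22.0 CPM at 12 weeks and 11.7 to 19.2 CPM at 2 weeks, with Rag2 at 0 at 12 weeks and Ptcra at 0 at 2 weeks, and 1 of 5 tested rose. Erythroid markers fell in 3 and rose in 1 of 9 tested, with sums of 379 to 1080 CPM at 12 weeks and 944 to 1845 CPM at 2 weeks. In the HDM lungs 0 of 5 thymocyte markers were called by edgeR, with sums of 15.1 to 41.6 CPM at 12 weeks and 15.7 to 21.9 CPM at 2 weeks. Of 9 erythroid markers 2 rose and 0 fell there, with sums of 594 to 3803 CPM at 12 weeks and 990.2 to 1775 CPM at 2 weeks. Replicate 2 of the 12-week HDM group held the highest sum of both lists.

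Signs of RNA quality differed between the groups too. Mitochondrial ribosomal RNA counts in both shares below, so they are not separate signs. In the saline-labelled lungs mitochondrial genes took 4.26% to 7.16% of counts at 12 weeks, against 1.99% to 3.59% at 2 weeks outside the shallow library, which had 9.80%. Ribosomal RNA took 2.95% to 4.40% at 12 weeks, against 0.258% to 1.12% at 2 weeks outside that library. In the HDM lungs the ranges overlapped, with mitochondrial shares of 2.504% to 4.21% at 12 weeks and 3.27% to 6.64% at 2 weeks, and ribosomal shares of 1.31% to 2.92% at 12 weeks and 1.72% to 3.19% at 2 weeks. The part of RNA quality in the differences was not tested.

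At 12 weeks, 100 µg HDM was compared with the lungs labelled saline, which asks what the long exposure does at matched time. Of the 44 genes, 0 rose and 4 fell, all of them mitotic, where 4.29% of all genes were called higher and 4.08% lower. The median log2 fold change was -0.56 over the mitotic genes, with a negative value for all 27, and -0.06 over the S-phase genes, with 11 of 17 negative. Direction here rests on the label in doubt. For no gene of the set did the 2 groups separate, and such genes were not counted over all genes tested. Mitochondrial genes took 2.504% to 4.21% of counts in the HDM lungs and 4.26% to 7.16% in the saline-labelled lungs, and ribosomal RNA 1.31% to 2.92% in the HDM lungs and 2.95% to 4.40% in the saline-labelled lungs, without overlap. Replicate 2 of the saline-labelled group, with the highest mitotic score, had the highest of both shares among the 12-week libraries. Both shares count mitochondrial ribosomal RNA, and their part in the difference was not tested.

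Tpx2, which activates the kinase Aurka on the spindle, had 19.4, 16.2, 10.4, 26.9 and 17.9 CPM in the HDM lungs, against 46.9, 50.7, 19.1, 23.1 and 23.2 CPM in the saline-labelled lungs. Replicates 1 and 2 of the saline-labelled group were far above all others, and the remaining 3 overlapped with the HDM lungs. The log2 fold change was -0.84 ± 0.23 (adjusted p = 0.0313). Cenpf had 24.4, 19.7, 13.1, 47.4 and 26.4 CPM in the HDM lungs, against 66.6, 73.0, 28.9, 36.2 and 35.0 CPM in the saline-labelled lungs, with a log2 fold change of -0.87 ± 0.26 (adjusted p = 0.0417). Ttk, the kinase that starts the spindle checkpoint, had 2.60, 2.28, 1.39, 3.74 and 2.15 CPM in the HDM lungs, against 6.16, 5.70, 2.70, 3.20 and 3.47 CPM in the saline-labelled lungs, with a log2 fold change of -0.81 ± 0.25 (adjusted p = 0.0453). Mki67 fell by 0.79 ± 0.25 on the log2 scale, with an adjusted p of 0.0472. In all 4 genes replicate 4 of the HDM group overlapped with the saline-labelled lungs.

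The number of calls at 12 weeks depended on single libraries. It was 0 without replicate 1 or without replicate 2 of the saline-labelled group, and 0 without replicate 2, 3 or 5 of the HDM group. It was 17 without replicate 3 and 12 without replicate 4 of the saline-labelled group, and 20 without replicate 4 of the HDM group. Over 18 other settings the adjusted p ran from 0.00647 to 0.134 for Tpx2, from 0.00952 to 0.158 for Cenpf, from 0.0147 to 0.156 for Ttk and from 0.00952 to 0.195 for Mki67. Other genes of the cycle were called in the same direction in 8 of 62 mitosis genes, Ckap2l (-0.82), Depdc1a (-1.12), Mad2l1 (-0.55) and Stil (-0.83) leading by p, and in 1 of 48 replication genes, Blm (-0.49), while 0 of either list were higher. The lower shares are 12.9% and 2.08% of the lists, against 4.08% of all genes. Beside these lists, 2 of 10 B cell markers were lower, with sums of 260 to 428 CPM in HDM lungs and 406 to 595 CPM in saline-labelled lungs. Of 11 endothelial markers 5 were higher, as were 4 of 12 alveolar macrophage markers. Their part in the difference was not tested.

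For the mitotic genes, individual lungs differed more at 12 than at 2 weeks. Their median coefficient of variation was 34.4% in the 12-week HDM group and 33.9% in the 12-week saline-labelled group, against 13.3% to 27.6% in the 2-week groups. That of the S-phase genes was 16.5% in the 12-week HDM group, against 10.8% in the 2-week HDM group, and 13.1% in the 12-week saline-labelled group, against 13.5% in the 2-week saline group. Lungs ranked alike across the mitotic genes. Within the 12-week HDM group replicate 4 was the highest and replicate 3 the lowest lung for all 27 mitotic genes. Of the 27, 19 had their highest value of all 25 libraries in replicate 2 of the 12-week saline-labelled group, 6 in replicate 1 of that group and 2 in replicate 4 of the 12-week HDM group. Replicate 2 of the saline-labelled group had a mitotic score of 4.46 and replicate 1 of 4.31, while its other 3 lungs had 3.43, 3.70 and 3.77. In the HDM group the mitotic score ran from 2.75 in replicate 3 to 4.06 in replicate 4.

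The effect of 100 µg HDM at 12 weeks was set against its effect at 2 weeks, an interaction that uses both saline groups. It was called for 0 genes in the higher and 2 genes in the lower direction, where 4.74% of all genes were called higher and 3.52% lower. The count of lower genes is near the 3.52% and is no result about the set. Plk1 had a difference of -1.63 ± 0.37 on the log2 scale (adjusted p = 0.0104): HDM against saline was -0.67 ± 0.24 at 12 weeks and 0.96 ± 0.28 at 2 weeks. E2f8 had 6.73, 5.30, 4.96, 8.76 and 6.11 CPM in the 12-week HDM lungs, against 12.2, 14.0, 7.30, 8.60 and 7.45 CPM in the 12-week saline-labelled lungs. In the 2-week HDM lungs E2f8 had 3.53, 2.70, 3.22, 3.20 and 3.57 CPM, against 2.11, 2.42, 2.28, 4.81 and 1.56 CPM in the 2-week saline lungs. Its difference was -1.10 ± 0.32 (adjusted p = 0.0374). The highest of the 2-week saline values was that of the shallow library.

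Plk1 was called in all 28 other settings, with adjusted p of 0.000809 to 0.0248. E2f8 was called in 14 of the 28, with adjusted p of 0.00878 to 0.0759. It lost its call without replicate 1, 2, 3 or 5 of the 2-week saline group, without replicate 3, 4 or 5 of the 2-week HDM group, without replicate 1 or 2 of the 12-week saline-labelled group and without replicate 2, 3 or 5 of the 12-week HDM group. In each case 1 gene of the set was then called, or 2 without replicate 2 of the 2-week saline group, where Ube2c was called, and without replicate 2 of the 12-week saline-labelled group, where Pcna was called. Without replicate 4 of the 12-week HDM group 8 were called, and without replicate 3 of the 12-week saline-labelled group 5. In the lists outside the set, 4 mitosis genes (Stil, Ncapd2, Ckap2l and Cks1b), 3 replication genes (Mcm10, Chaf1b and Blm) and 4 of 35 G1 genes (Trp53, Myc, E2f7 and E2f4) were lower, and 1 G1 gene was higher. The lower shares are 6.45%, 6.25% and 11.4% of these lists, against 3.52% of all genes. The higher share of the G1 list is 2.86%, against 4.74% of all genes.

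At 2 weeks few genes of the set were called in the dose series. For 100 µg HDM against saline, 2 of 44 genes rose and 0 fell, where 4.12% of all genes were called higher and 4.01% lower. The count is near that share and is no result about the set. The median log2 fold change was 0.03. It was 0.14 over the S-phase genes, with 13 of 17 positive, and -0.02 over the mitotic genes, with 12 of 27 positive. The S-phase score was 3.1883 to 3.3535 with 100 µg and 3.008 to 3.1873 with saline. These ranges did not overlap, but the score carries no test. Plk1 had 1.06, 1.21, 0.727, 1.09 and 1.25 CPM with saline, 2.00, 1.11, 2.18, 1.50 and 1.63 CPM with 10 µg and 1.77, 2.52, 2.06, 1.96 and 2.16 CPM with 100 µg HDM. All 5 lungs at 100 µg were above all 5 saline lungs, and those at 10 µg overlapped with both. The log2 fold change of 100 µg against saline was 0.96 ± 0.28 (adjusted p = 0.0345). Mcm2 had 13.0, 14.9, 13.0, 12.7 and 14.6 CPM with saline, 15.8, 15.0, 16.3, 12.9 and 18.0 CPM with 10 µg and 16.8, 21.4, 16.5, 18.0 and 14.8 CPM with 100 µg HDM. The groups overlapped, and the log2 fold change of 100 µg against saline was 0.35 ± 0.11 (adjusted p = 0.0412).

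Next in order were Tk1, with a log2 fold change of 0.65 ± 0.22 (adjusted p = 0.0673), Gins2, a subunit of the helicase complex, with 0.56 ± 0.20 (adjusted p = 0.084), and Pcna, with -0.23 ± 0.09 (adjusted p = 0.107), none of which passed the test. The adjusted p of Plk1 ran from 0.0114 to 0.127 and that of Mcm2 from 0.015 to 0.118 over 18 other settings. The count was 0 without replicate 1 or 3 of the saline group and without replicate 2, 3 or 4 of the HDM group. It was 1 without replicate 2 or without the shallow replicate 4 of the saline group, and 1 without replicate 5 of the HDM group. Of the lists outside the set, 4 of 48 replication genes rose (Mcm10, Chaf1a, Cdk2 and Fen1), 0 of 62 mitosis genes did, and 2 of 35 G1 genes rose, Trp53 by 1.01 ± 0.15 and Myc by 0.78 ± 0.15. These are 8.33%, 0% and 5.71% of the lists, against 4.12% of all genes called higher. The G1 count is near that share and is no result about the list. In the same comparison 6 of 14 circadian clock genes were higher and 4 lower, with summed levels of 992 to 1227 CPM with 100 µg and 679 to 928 CPM with saline. Their part was not tested. Of 10 B cell markers 4 rose, with sums of 243 to 460 CPM with 100 µg and 215 to 361 CPM with saline.

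For 10 µg HDM against saline, 0 of 44 genes were called with edgeR, DESeq2 or limma-voom, and 3 had an unadjusted p under 0.05. Over all genes 0.0305% were called higher and 0.0102% lower. The smallest adjusted p was 0.357, for Plk1, with a log2 fold change of 0.64 ± 0.28. For 100 µg against 10 µg, 0 of 44 genes were called with edgeR, DESeq2 or limma-voom, and 1 had an unadjusted p under 0.05, which was Pcna (log2 fold change -0.21 ± 0.09, adjusted p = 0.522). Over all genes 0% were called higher and 0% lower. The 2-week comparisons share the saline or the 100 µg libraries, so their values are given side by side and not counted together.

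Per kilobase of exon, the levels of the genes can be set against each other. In the 12-week HDM lungs Pcna led with 20.7 CPM per kilobase, followed by Mki67 with 14.7, Mcm4 with 11.4 and Mcm6 with 9.76. In the 12-week saline-labelled lungs Mki67 led with 25.5 CPM per kilobase, followed by Pcna with 19.2, Mcm4 with 11.9 and Top2a with 9.81. In the 2-week saline lungs Pcna led with 19.7 CPM per kilobase, followed by Mcm4 with 11.4, Mcm6 with 6.77 and Mki67 with 5.99. The lowest levels there were those of Ttk with 0.217, Tk1 with 0.287 and Gins2 with 0.288. Pcna and Mcm4, the S-phase genes with the highest levels per kilobase in all 3 of these groups, were also those with the smallest differences between 12 and 2 weeks in the saline-labelled lungs.

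The 44 genes lie on 17 chromosomes of the GRCm38 build, so they do not form a cluster. Plk1 lies at chr7:122159439-122169873 on the plus strand and Mki67 at chr7:135689784-135716361 on the minus strand. Top2a lies at chr11:98992943-99024189, Cdk1 at chr10:69335146-69352938, E2f8 at chr7:48866429-48881596 and Mcm2 at chr6:88883474-88898780, all on the minus strand, and Mcm5 at chr8:75109569-75128439 on the plus strand. Some genes overlap a gene with counts on the opposite strand. Prc1 lies over Rccd1, Kif20a over Cdc23, Ccna2 over Exosc9, Gins2 over Gse1, Mcm7 over Ap4m1 and Cops6, Cdc45 over Ufd1, Tk1 over Afmid and Cdc20 over Elovl1. Nusap1 lies over Oip5, Plk1 over Gm44985, E2f8 over Gm2788 and Ube2c over Tnnc2, whose counts over all 25 libraries came to 741 for Oip5, 325 for Gm44985, 148 for Gm2788 and 106 for Tnnc2. Overlaps with opposite-strand genes of under 100 counts are not listed. Whether reads were counted by strand is not stated, so the values of these 12 genes may hold reads of their neighbours.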

How the data were processed

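Whole-lung RNA was sequenced from 25 mice after a stranded total RNA kit, per the labels' protocols. Reads were aligned with STAR 2.5.3a to GRCm38, per the submitters' processing notes. How reads were counted, whether by strand, and with which annotation, is not given in the sources used here. The authors deposited 1 table of raw counts for 55421 genes, of which 99.5% had a symbol in the reference tables. Columns were tied to mice by their titles, and 0 columns were left unused.

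Counts were normalised by TMM and fitted over all 25 libraries and 5 groups with edgeR 4.0.16 in R 4.3.3 (filterByExpr, 19654 genes tested, quasi-likelihood F-test). P-values were adjusted by Benjamini-Hochberg over all genes tested, with calls at values under 0.05. CPM are TMM-normalised, and scores use log2 CPM with a prior count of 1. The test of 100 µg HDM against saline at each time point was checked on simulated data. DESeq2 1.42.0, limma-voom 3.58.1, other scalings and filters, a fit of the compared groups only, a replicate block and the removal of each library were tried. Levels per kilobase use the exon union of GENCODE M21, and promoters come from RefSeq.

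The 44 genes and the other lists were chosen with earlier results of these data known. Values of every mouse are given for the genes with the smallest p in a comparison and for 9 marker genes. Of every other list, counts and up to 4 genes with the smallest p are given. Depth of 25.4 M to 51.9 M counts in 24 libraries and 7.23 M in the last sets the precision of low genes. No pair of libraries looked like a repeat, with a lowest chi-square per degree of freedom of 12.1 over 300 pairs.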

Additional observations from a re-analysis of the deposited data

Results flagged for a closer look

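The interaction test flagged 2 genes for which the effect of 100 µg HDM differed between 12 and 2 weeks. That count is near the 3.52% of all genes called lower and is no result about the set. The difference was -1.63 on the log2 scale for Plk1 and -1.10 for E2f8, and its direction rests on the 12-week libraries labelled saline.

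A library far from the other 4 of its group was found in 4 of 100 groups of values tested, where chance alone flags about 1 in 20. Replicate 2 of the 2-week saline group had a mitotic score of 2.65, above its group. Replicate 4 of that group, the library with the lowest depth, had 0.437 CPM of Tk1, below its group. Replicate 3 of the 10 µg HDM group had 2.94 CPM of Aurkb, above its group. Replicate 3 of the 12-week HDM group had 5.64 CPM of Tk1, below its group.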

How the results depend on the processing

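Under every setting tried, no called gene of the set changed sign. Of the genes called between 12 and 2 weeks, 39 were called in every one of 18 settings in the HDM lungs and 39 in the saline-labelled lungs. Leaving out 1 library gave 39 to 43 calls in the HDM lungs and 40 to 42 in the saline-labelled lungs. For 100 µg HDM against saline-labelled lungs at 12 weeks, 4 calls became 8 with upper-quartile scaling, 7 with a filter of 1 CPM in 5 libraries, 13 with DESeq2, 13 with limma-voom, 0 with the compared groups only, and 0 to 20 when 1 library was left out. For 100 µg HDM against saline at 2 weeks, 2 calls became 1 with no filter, 4 with DESeq2, 0 with limma-voom, 1 with the compared groups only, and 0 to 2 when 1 library was left out. For the interaction, 2 calls became 5 with DESeq2, 1 with the compared groups only, and 1 to 8 when 1 library was left out. The cause of these shifts was not tested. Without Mcm2 to Mcm7 the mean S-phase score was 2.34 in 2-week saline lungs, 2.47 with 10 µg and 2.54 with 100 µg HDM at 2 weeks, and 3.36 with HDM and 3.52 in saline-labelled lungs at 12 weeks.

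The replicate numbers gave no sign of pairing the mice, though a weak pairing is not excluded. Deviations of same-numbered libraries had a median correlation of 0.001 over 50 pairs, 4 of them over 0.1. For different numbers the median was -0.004 over 200 pairs, 32 of them over 0.1. Of 25 libraries, 5 correlated best with their own number. With the replicate block, calls were 1 for 100 µg HDM against saline at 2 weeks, 3 at 12 weeks and 1 for the interaction. Genes near 1 CPM rest on few counts in the shallow library, and smaller differences were not detectable there.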
